A study of Mus musculus with 16 samples.

Results

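miR-31 is a microRNA hairpin whose stem gives rise to 2 mature strands, mmu-miR-31-5p and mmu-miR-31-3p (miR-31-5p and miR-31-3p). Both were followed through serum stimulation of mouse 3T9 fibroblasts. They are 2 of the 1167 mature miRNAs in the count table and were chosen by name. The level of each was taken as the sum of its reads over 8 sequence classes. 3T9 is an immortalised line of mouse embryo fibroblasts. All groups were the same unmodified line, deprived of serum for 72 h to bring the cells into quiescence. The 0 h group was sampled at the end of this, and the other groups 1, 2, 4, 6, 8, 10 and 12 h after complete medium with 10% fetal bovine serum was given. Small RNA was sequenced in 2 libraries per time, called replicate 1 and replicate 2, which the series design text describes as independent experiments. A further time point of the series is not analysed here.

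A miRNA hairpin is cut out of a longer primary transcript by Drosha and then opened by Dicer into a duplex of both arms. One arm, the guide, is usually kept in an Argonaute protein and directs it to messenger RNAs through its seed, bases 2 to 8. The other arm, the passenger, is mostly degraded. miR-31-5p is the guide arm of miR-31 and is known to repress regulators of cell adhesion, shape and growth, among them RhoA and Lats2. In human tumours the locus is often lost together with its neighbour CDKN2A.

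The sequences are shown because the classes below depend on where each strand ends in the hairpin. They are from RefSeq (GRCm38.p6), which held entries for both strands and for 988 of the 1167 miRNAs. Capitals mark the seed in the strands.
miR-31-5p: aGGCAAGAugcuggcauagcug
miR-31-3p: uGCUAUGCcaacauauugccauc
In the hairpin, the 5p arm (bases 28 to 49) and then the 3p arm (bases 64 to 86) are in capitals, with 14 bases between them.
mir-31 hairpin: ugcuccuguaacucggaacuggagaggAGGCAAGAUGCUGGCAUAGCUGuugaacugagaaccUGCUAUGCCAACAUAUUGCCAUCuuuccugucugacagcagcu
Predicted folding paired 17 of the 22 bases of miR-31-5p with bases of miR-31-3p. Neither seed occurred in another of the 1679 mature names of the RefSeq table, so no second miRNA with the seed of either arm could be set beside them.

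The hairpin lies at chr4:88910557-88910662 on the minus strand (GRCm38). It falls inside exon 3, the last exon, of the long noncoding RNA gene AL805899.1 (chr4:88909855-88938521, minus strand; exon chr4:88909855-88910710). The nearest coding genes are the interferon gene Ifne, 30.4 kb away at lower coordinates, and Mtap, an enzyme gene of methionine salvage, 226 kb away at higher coordinates. Cdkn2a, which encodes cell-cycle inhibitors, lies 364 kb away. The nearest other miRNA hairpin is Mir491 at 788 kb, so no neighbouring miRNA shares the transcript in this annotation.

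The libraries held 5852087 to 7783249 miRNA reads. Fibroblast and mesenchyme markers (5 miRNAs, miR-143-3p and miR-199a-3p among them) summed to 125877 to 174238 CPM in each library, the TMM-scaled share of miRNA reads. Markers of muscle (3 miRNAs), blood (3), pluripotent cells (3) and liver (1) summed to at most 2.67, 1.76, 0.678 and 0.629 CPM in any library, neural miR-9-5p reached 10.4 CPM, and 5 epithelial markers summed to 64.5 to 138 CPM. In bulk RNA, a change in the kinds of cells present and a change of RNA per cell cannot be told apart, and CPM is a share of all miRNA reads. Both arms of miR-31 passed the filter on low counts. The table's header names a different sequencing run for each replicate number, so experiment and run cannot be told apart. Of 449 tested miRNAs, 128 (28.5%) differed between replicate numbers (edgeR quasi-likelihood test with the replicate number as a block, adjusted p under 0.05).

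miR-31-5p was an abundant miRNA at every time and rose over the 12 h. It took 0.963% to 1.32% of the reads of a library and ranked between 16 and 22 among all miRNAs. Its mean level was 9850 ± 994 CPM (SD, n = 2) in quiescent cells and 12850 ± 742 CPM at 12 h, which is 1.30 times as much. The means of 0, 1 and 2 h lay at 9850, 10040 and 10048 CPM, that of 6 h at 10893 and that of 10 h at 12970 CPM. A straight line through all times had a log2 slope of 0.0354 ± 0.00497 per hour (SE; edgeR quasi-likelihood test, p adjusted by Benjamini-Hochberg = 2.44e-05). Of the tested miRNAs, 113 (25.2%) changed in this test of a linear trend, 54 upward (37 of 148 when libraries were scaled by total counts), and the slope of miR-31-5p was the 84th from the highest of 449.

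In replicate 1, the level of miR-31-5p at 0, 1, 2, 4, 6, 8, 10 and 12 h was 10553, 10087, 9903, 11264, 10893, 11596, 12530 and 13375 CPM. In replicate 2 it was 9147, 9993, 10194, 10211, 10893, 11847, 13411 and 12326 CPM at the same times. In TMM-scaled CPM every library of 8, 10 and 12 h was above every library of 0 to 6 h, in both experiments. This did not hold with total counts, where 8 h replicate 1 was at 10967 CPM. There 0 h replicate 1, 4 h replicate 1 and 6 h replicate 2 were higher, at 11095, 11453 and 11071 CPM. Ordered by mean TMM-scaled level the times ran 0, 1, 2, 4, 6, 8, 12 and 10 h. The libraries of neighbours in this order overlapped for 0 and 1 h, 1 and 2 h, 4 and 6 h, and 12 and 10 h, and lay apart for 2 and 4 h, 6 and 8 h, and 8 and 12 h. Counting alone gives an error of 0.334% to 0.393% at 64790 to 89467 reads of miR-31-5p per library, less than the SD between replicates at every time but 6 h.

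**Figure D1:**
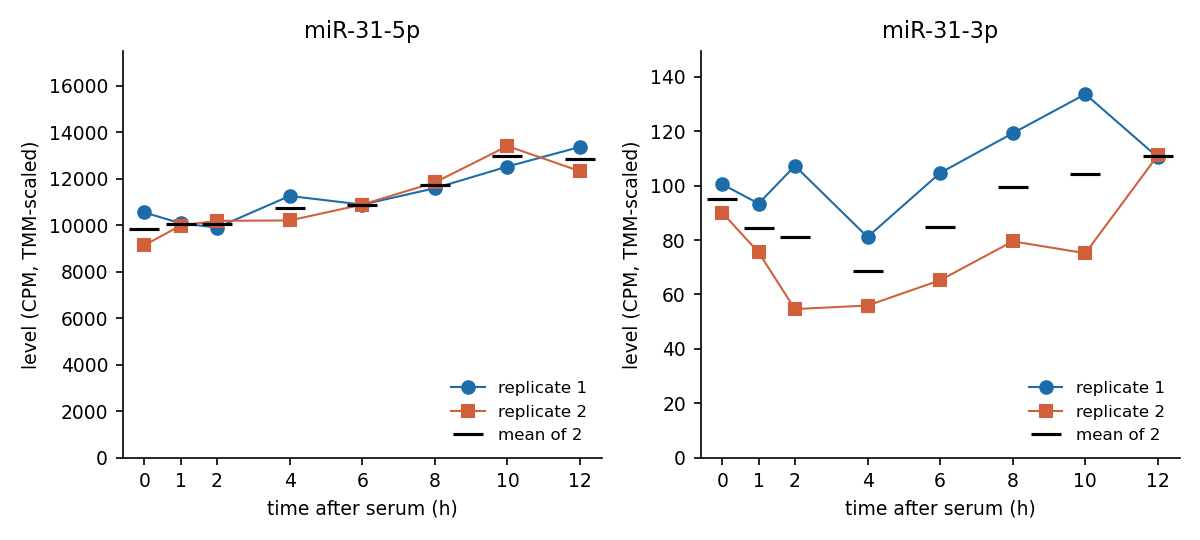
Level in CPM (TMM-scaled, linear axes from 0) against time after serum for miR-31-5p (left) and miR-31-3p (right). Each point is a library, joined by replicate number, and black bars are means of 2. miR-31-5p goes from 9850 CPM at 0 h to 12850 CPM at 12 h in the mean. Its replicates 1 and 2 are at 10553 and 9147 CPM at 0 h and at 13375 and 12326 CPM at 12 h. miR-31-3p is lower in replicate 2 than in replicate 1 at every time but 12 h.

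Against 0 h, the log2 difference of miR-31-5p was 0.40 ± 0.10 at 10 h and 0.38 ± 0.10 at 12 h (SE; edgeR, adjusted p = 0.0143 and 0.0165). These comparisons called 53 (11.8%) and 64 (14.3%) of 449 miRNAs, 32 and 37 of them upward. With total counts 20 of 51 and 23 of 68 called miRNAs were upward. At 1, 2, 4, 6 and 8 h the differences were 0.03, 0.03, 0.12, 0.15 and 0.25, with adjusted p of 0.994, 0.936, 0.55, 0.463 and 0.135 in edgeR, where 0.445, 2.45, 7.57, 7.8 and 9.58% of miRNAs were called. Without single libraries these ranged over 0.056 to 0.26 at 4 h, 0.061 to 0.31 at 6 h and 0.15 to 0.39 at 8 h, with no call. The test of any change over the 7 later times gave an adjusted p of 0.0333 for miR-31-5p, where 62 miRNAs (13.8%) were called. A replicate block left each of these calls on both arms as it was, while the share of miRNAs called at 1, 2, 4, 6, 8, 10 and 12 h became 1.11, 6.9, 14.7, 17.1, 18, 18.7 and 24.1%, that for any change 24.5% and that for the trend 31.4%.

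The trend of miR-31-5p passed in each experiment alone, with slopes of 0.0333 per hour in replicate 1 and 0.0428 in replicate 2 (adjusted p = 0.000977 and 0.00882, edgeR, 8 libraries each). The slopes differed by 0.00761 ± 0.00899 (SE; adjusted p = 0.929 in an interaction test, which called 0 of 449 miRNAs, with 24 at an unadjusted p under 0.05). The calls at single times were less firm. Leaving out either 12 h replicate 1 (0.34) or 0 h replicate 2 (0.28) ended the call at 12 h. Leaving out either 0 h replicate 2 (0.30) or 10 h replicate 2 (0.40) ended the one at 10 h. The call of any change was lost in each of the 16 fits that left out 1 library (adjusted p 0.0586 to 0.123). In the fits without 1 library the low-count filter kept 468 to 474 miRNAs rather than 449, and no replicate block was used. When libraries were scaled by total counts, the median of all tested miRNAs at 12 h was at -0.15 (log2), and the 12 h difference of miR-31-5p was 0.23 (adjusted p = 0.157) and its slope 0.0221 per hour (adjusted p = 0.00396).

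miR-31-3p, the passenger arm, had 1 read for every 92.4 to 187 reads of the guide and was not called in any of these tests. It had 362 to 817 reads per library and ranked between 130 and 164. Its mean level was 95.2 ± 7.39 CPM (SD, n = 2) at 0 h, 68.5 ± 17.8 CPM at 4 h and 111 ± 0.597 CPM at 12 h. The log2 slope was 0.0312 ± 0.0192 per hour (SE; edgeR, adjusted p = 0.249), against 0.0354 ± 0.00497 for the guide. At 12 h it was 0.22 ± 0.34 from 0 h (adjusted p = 0.745), and the test of any change gave an adjusted p of 0.88. These fits had no replicate block. With it the difference from 0 h was -0.50 ± 0.19 at 4 h and 0.23 ± 0.19 at 12 h (SE, edgeR, adjusted p = 0.111 and 0.423). The trend and any change of miR-31-3p then had unadjusted p of 0.0372 and 0.0409 (edgeR). Their adjusted p were 0.0958 and 0.132, so neither was called.

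The passenger arm ran at different levels in the experiments. In replicate 1, miR-31-3p stood at 100.4, 93.4, 107, 81.1, 105, 119, 134 and 110.3 CPM at 0, 1, 2, 4, 6, 8, 10 and 12 h. In replicate 2 the values were 90.0, 75.4, 54.6, 55.9, 65.2, 79.5, 75.2 and 111 CPM. Replicate 2 was the lower one at every time but 12 h, where the libraries were level, and replicate 1 had its lowest value at 4 h and its highest at 10 h. The libraries of all neighbours in the order of means (4, 2, 1, 6, 0, 8, 10 and 12 h) overlapped. Across all times the log2 difference of replicate 2 from replicate 1 was -0.50 ± 0.10 for miR-31-3p (SE; edgeR with the replicate block, adjusted p = 0.00148), a comparison added after the data had been seen. For miR-31-5p this difference between replicates was -0.04 ± 0.04 (adjusted p = 0.589).

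The balance of the arms was strongly toward the guide in every library. The 3p arm held 0.715% to 1.07% of miR-31 reads in replicate 1 and 0.533% to 0.974% in replicate 2. In replicate 1 the 3p share was 0.943, 0.917, 1.07, 0.715, 0.952, 1.02, 1.05 and 0.818% at 0, 1, 2, 4, 6, 8, 10 and 12 h. In replicate 2 it was 0.974, 0.749, 0.533, 0.545, 0.595, 0.667, 0.557 and 0.894%. Replicate 2 was lower from 1 h to 10 h and higher at 0 h and 12 h. At 2 h the exact 95% binomial intervals, which cover counting error only, were 0.997% to 1.15% in replicate 1 and 0.480% to 0.591% in replicate 2. At 0 h they were 0.875% to 1.01% and 0.902% to 1.05%, so the intervals overlapped at 0 h and lay apart at 2 h.

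**Figure D2:**
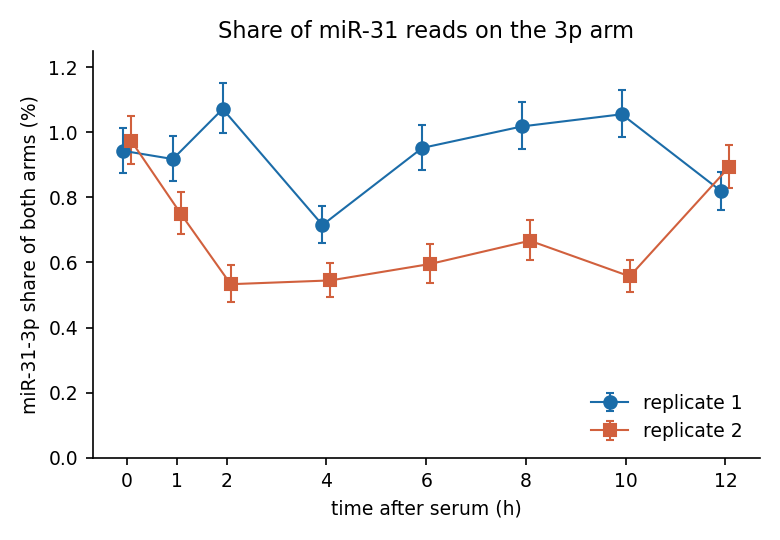
Share of miR-31 reads on the 3p arm (percent, axis from 0) against time after serum, one point per library, joined by replicate number and offset slightly along the time axis. Bars are exact 95% binomial intervals. At 0 h the replicates are at 0.943% and 0.974%, at 2 h at 1.07% and 0.533%.

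No change of the arm ratio with time was detectable. The log2 ratio of 3p to 5p reads had a slope of -0.00338 ± 0.0218 per hour (SE; adjusted p = 0.896, limma on 103 hairpins, of which 25, or 24.3%, were called; 29.1% with the replicate block). The 95% interval of this slope corresponds to a change between -0.59 and 0.51 over 12 h on the log2 scale. This interval is from the fit without the replicate block. With the block the SE of the slope was 0.0171 (adjusted p = 0.871, limma). The slope turned positive with reference reads alone (0.00296) and without any of 5 libraries. The test of any change gave an adjusted p of 0.928, where 13 hairpins (12.6%, or 18.4% with the block) were called. The slopes of the ratio within replicate 1 and replicate 2 were -0.00158 and -0.00519. The log2 ratio in replicate 2 differed from that in replicate 1 by -0.47 ± 0.14 (SE; limma with the replicate block, adjusted p = 0.0375), a call made for 20 of 103 hairpins (19.4%).

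Among the 103 hairpins with both arms measured, mir-31 had the 11th lowest mean log2 ratio of 3p to 5p reads, at -6.97. miR-30d (-7.35) and miR-15a (-6.60) stood next to it. The 5p arm was the more abundant one in 62 hairpins. An imbalance greater than that of mir-31, in either direction, was found in 19 hairpins, and the median size over all was 3.09 on the log2 scale.

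The end forms of both arms were dominated by the reference sequence. For miR-31-5p, 76.2% of 1208865 reads were the reference, 14.5% ran on at the 3′ end with bases that match the hairpin (templated), 6.91% were trimmed, and 2.30% carried 3′ bases that do not match it. For miR-31-3p, 78.3% of 9888 reads were the reference, 13.7% were trimmed, 4.50% had unmatched and 3.51% had templated 3′ additions. Reads with extra bases at the 5′ end, which would move the seed, made up 0.0254% (unmatched) and 0.000414% (templated) of miR-31-5p. Reference reads took a median of 45.7% over the 272 miRNAs tested for that class, where miR-31-3p ranked 29th and miR-31-5p 39th from the highest. Which end was trimmed is not given in the class names.

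The hairpin shows what the 3′ classes can hold. The strands are printed again with the bases that follow them in the hairpin in capitals, as the RefSeq ends place them.
miR-31-5p and the bases after it: aggcaagaugcuggcauagcugUUGAA
miR-31-3p and the bases after it: ugcuaugccaacauauugccaucUUUCC
Both strands are followed by U. If the authors' reference ends at the same bases, a single U added to either strand after processing matches the hairpin and is counted as templated. In the table, unmatched U additions were rare on miR-31-5p, 344 reads or 0.0285% against a median of 3.55% over 129 miRNAs, the second lowest share. Templated U and added U cannot be told apart in these counts.

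Over the 12 h the reference form took a rising and the trimmed form a falling share of miR-31-3p reads. The reference share was 73.3% ± 0.186 (SD, n = 2) at 0 h and 80.5% ± 2.44 at 12 h, and the trimmed share 17.4% ± 1.56 and 11.2% ± 1.62. As log2 odds against the arm's other reads, the reference form rose by 0.0506 ± 0.0130 per hour and the trimmed form fell by 0.0677 per hour (SE 0.0206; adjusted p = 0.0075 and 0.0198, limma). The shares are parts of 1 whole, so these are not separate results. Of 1514 pairs of miRNA and class, 462 (30.5%) were called in this test, among them 92 of 272 for the reference class, 29 upward and 63 downward, and 90 of 248 for the trimmed class, 46 upward and 44 downward. The rise of the reference form of miR-31-3p thus had the less frequent direction of its class.

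The trimmed share of miR-31-3p was 16.3, 13.2, 14.4, 15.7, 16.4, 15.5, 11.4 and 12.3% in replicate 1 at 0 to 12 h. In replicate 2 it was 18.5, 15.3, 19.3, 9.77, 11.9, 8.32, 8.06 and 10.0%, from 39 to 123 reads per library. In replicate 2 every library from 4 h on was below those of 0 to 2 h, and in replicate 1 the lowest shares were at 10 and 12 h. The trends within replicate 2 passed (reference 0.0698, trimmed -0.107, adjusted p = 0.026 and 0.0286) and those within replicate 1 did not (0.0315 and -0.0280, adjusted p = 0.215 and 0.276). The difference in slope between replicates was -0.0792 ± 0.0337 for the trimmed form (interaction test, unadjusted p = 0.0342, adjusted p = 0.885). In this test 0 of 1514 pairs were called and 73 were at an unadjusted p under 0.05.

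**Figure D3:**
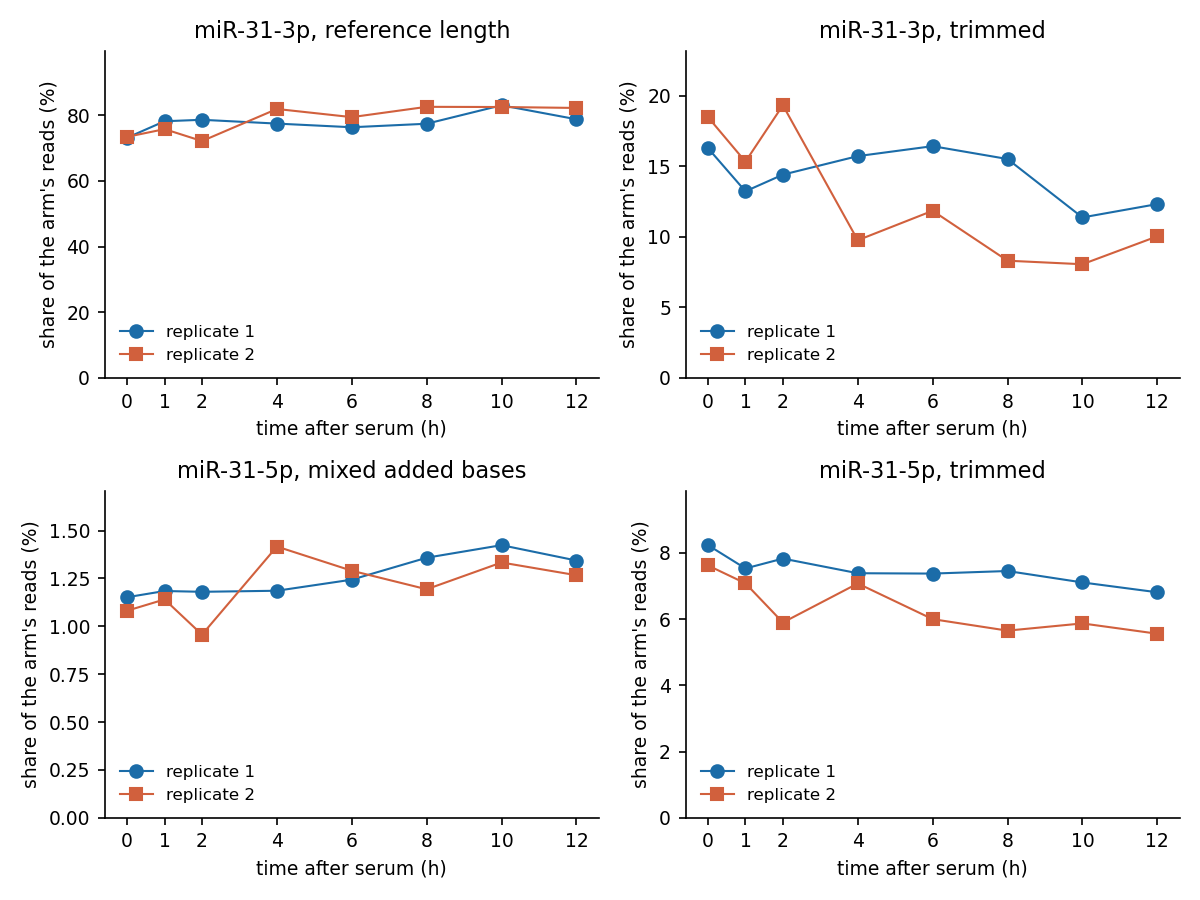
Share of an arm's reads (percent, linear axes from 0, scaled per panel) in 4 end classes against time after serum, one point per library, joined by replicate number. The trimmed share of miR-31-3p goes from a mean of 17.4% at 0 h to 11.2% at 12 h, with the steeper course in replicate 2, and the trimmed share of miR-31-5p from 7.93% to 6.19%.

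For miR-31-5p only the class named mixed among the unmatched 3′ additions was called over the trend without the replicate block. Its share was 1.12% ± 0.0498 (SD, n = 2) at 0 h and 1.31% ± 0.0542 at 12 h, with a trend of 0.0241 ± 0.00769 per hour in log2 odds (SE; adjusted p = 0.0249, limma). Mixed additions were called in 60 of 145 miRNAs, 54 of them upward. This call was lost without 0 h replicate 2 (0.0228, adjusted p = 0.0549) or 10 h replicate 1 (0.0221, adjusted p = 0.0548), and within replicate 2 alone (0.0239, adjusted p = 0.257).

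The trimmed and reference forms of miR-31-5p were not called without the replicate block and were called with it. Without it the trimmed form had a trend of -0.0260 ± 0.0103 per hour (adjusted p = 0.0674) and the reference form one of 0.0200 ± 0.0106 (adjusted p = 0.17). With the block their adjusted p were 0.00359 and 0.0358, and that of A additions (-0.0189) was 0.0411. This brought the called classes of both arms from 3 to 6 of 16 tested, while the called share of all pairs went from 30.5% to 42%. The classes of an arm are parts of 1 whole, so these are not separate results. The trimmed form also passed with a mean class count of at least 50 (adjusted p = 0.0439) and without 2 h replicate 2 (-0.0305, adjusted p = 0.0232, limma). The trimmed share of miR-31-5p was 8.24% at 0 h and 6.81% at 12 h in replicate 1, and 7.62% and 5.56% in replicate 2. No class of either arm passed the test of any change (0 of 16, 0 at an unadjusted p under 0.05, limma; 122 of 1514 pairs, or 8.06%, were called, and 20.6% with the block).

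Reads of miR-31-5p with an unmatched C at the 3′ end separated the replicates completely. In replicate 1 there were 160, 115, 142, 176, 160, 132, 123 and 170 such reads at 0 to 12 h, and in replicate 2 there were 3, 4, 2, 5, 1, 5, 1 and 5. This comparison of replicate numbers was added after the data had been seen. The log2 odds in replicate 2 differed from those in replicate 1 by -5.36 ± 0.27 (SE; limma with the replicate block, adjusted p = 8.96e-07, which called 473 of 1514 pairs, 31.2%). C additions were lower in replicate 2 for 45 of 66 tested miRNAs, with a median difference of -2.47, and 8 miRNAs had a lower difference than miR-31-5p. The other added bases moved less. A additions on miR-31-5p were higher in replicate 2 by 0.47 ± 0.06 (adjusted p = 0.000334) and U additions differed by -0.78 ± 0.14 (adjusted p = 0.00279), while G additions differed by -0.06 ± 0.14 (adjusted p = 0.791). A additions were higher in replicate 2 for 88 of 135 tested miRNAs (median 0.46). U additions were lower for 44 of 129, and miR-31-5p had the 2nd lowest difference. It rests on few reads, 23 to 31 per library in replicate 1 and 9 to 23 in replicate 2. The reference form of miR-31-5p was higher in replicate 2 by 0.25 ± 0.05. Its trimmed and templated 3′ forms differed by -0.26 ± 0.05 and -0.23 ± 0.05 (adjusted p of the 3 = 0.0061, 0.00647 and 0.00469, same test). These 3 classes were called in 15.8, 25 and 32.4% of the miRNAs tested for them.

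**Figure D4:**
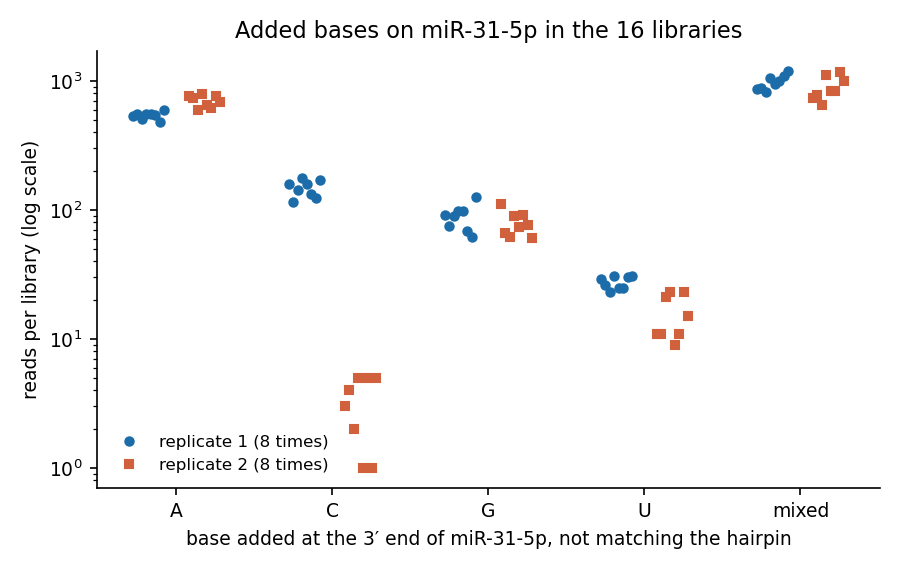
Reads of miR-31-5p per library (log scale) with an unmatched base at the 3′ end, by the base added, for the 8 libraries of replicate 1 (circles) and of replicate 2 (squares). C additions lie at 115 to 176 reads in replicate 1 and at 1 to 5 reads in replicate 2.

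miR-31 was set beside a list of miRNAs that growth factors or serum can induce, which was chosen with earlier results of these data known. It held both arms of miR-21a, miR-31, miR-132, miR-146a, miR-146b, miR-155, miR-212, miR-221 and miR-222, of which 16 of 18 strands were tested. At 12 h, 8 were higher than at 0 h, 0 were lower and 8 were not called, with a median log2 difference of 0.68 against 0.00467 over all 449 tested miRNAs, of which 14.3% were called and 8.24% were higher. With total counts 6 were higher and 0 lower. Over the linear trend 9 rose and 0 fell, where 25.2% of all tested miRNAs were called and 12% rose. miR-31-5p is itself counted among the 8 and the 9, so these counts are not separate evidence on it.

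miR-31-5p had the lowest 12 h difference of the 8 that were called. miR-155-5p, a regulator of immune responses, was higher by 1.83 ± 0.23 and miR-222-3p, a repressor of Cdkn1b, by 1.30 ± 0.18 (SE; edgeR, adjusted p = 7.96e-05 and 0.000202). miR-21a-5p, for which Pdcd4 is a known target, was higher by 0.59 ± 0.18 (adjusted p = 0.0434). The differences of miR-212-5p (0.81), miR-132-3p (0.73), miR-146b-5p (0.63), miR-146a-5p (0.50) and miR-221-3p (0.43) did not pass (adjusted p 0.0668 to 0.326). The SE of miR-31-5p, 0.10, was the lowest of the 16 strands. No difference between miR-31-5p and another strand of the list was tested.

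**Figure D5:**
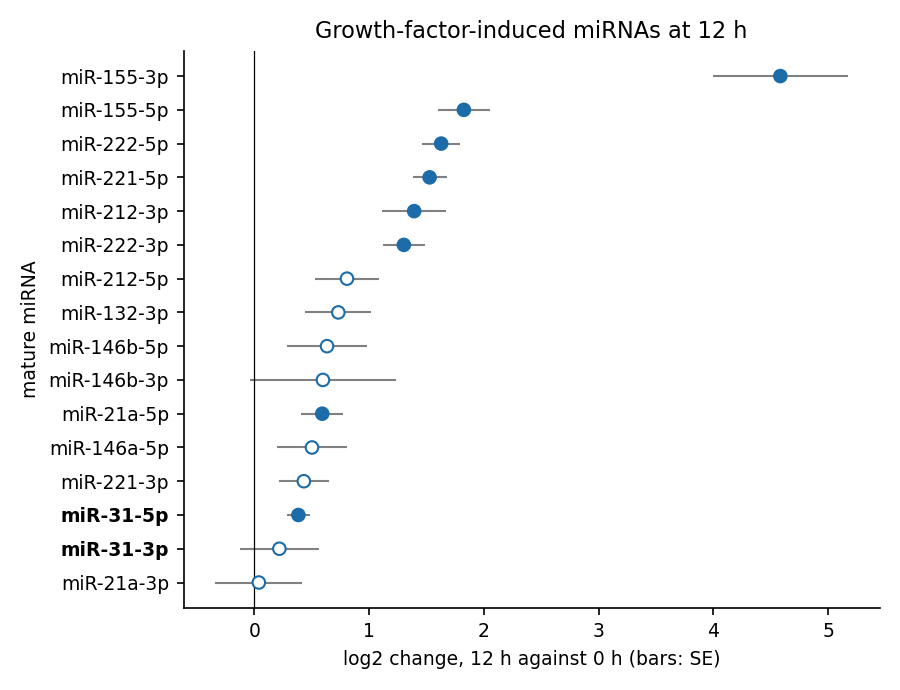
Log2 change at 12 h against 0 h with its SE for the 16 tested strands of the growth-factor list, the arms of miR-31 in bold. Filled points passed the test (adjusted p under 0.05). miR-31-5p is at 0.38 and miR-31-3p at 0.22. The value of miR-155-3p rests on 3 reads at 0 h and depends on the fit's prior count.

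By the correlation of mean log2 CPM over the 8 times, the miRNAs most like miR-31-5p were miR-222-5p (r = 0.957), miR-92a-3p (0.953) and miR-29a-3p (0.953). All 3 rose over the trend, by 0.144, 0.0401 and 0.0634 per hour (adjusted p = 2.09e-08, 0.000115 and 6.15e-07, edgeR). Those most like miR-31-3p were miR-30a-5p (0.91), miR-30a-3p (0.873) and miR-30c-2-3p (0.868), strands of the miR-30 family, with slopes of 0.0278, 0.0395 and 0.0786 per hour (adjusted p = 0.0125, 0.024 and 0.0011). Within replicate 1 and replicate 2 the correlations with miR-31-5p were 0.895 and 0.918 for miR-222-5p, 0.962 and 0.886 for miR-92a-3p, and 0.891 and 0.855 for miR-29a-3p. Those with miR-31-3p were 0.769 and 0.842 for miR-30a-5p, 0.447 and 0.645 for miR-30a-3p, and 0.709 and 0.788 for miR-30c-2-3p. Between the arms of miR-31 the correlation of these means was 0.633, and over the 8 libraries it was 0.466 in replicate 1 and 0.294 in replicate 2. These are descriptions over 8 points that share libraries and scaling. The miRNAs were picked for their likeness to an arm over these same libraries. Their slopes and their correlations within replicates are therefore not separate evidence.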

How the data were processed

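The authors deposited raw read counts per mature miRNA and sequence class, 1 column per library, per the file headers. Per the submitters' processing notes CASAVA 1.8.0 was used. The aligner, miRBase release and mismatch rules: not given in the sources used here. Per the labels' protocols, the TruSeq small RNA kit was applied to 1000 ng of total RNA. Class meanings were read from the class names. One identical duplicate of 6511 entries was dropped. Entries for added bases repeat the unmatched class (equal in all 801 3′ and 165 5′ entries) and were left out of totals.

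Totals were tested with edgeR 4.0.16 (R 4.3.3; quasi-likelihood; filterByExpr, minimum count 10; TMM factors 0.935 to 1.07), all 16 libraries in 1 fit, Benjamini-Hochberg over 449 miRNAs at 0.05. The SE is the change over the square root of F. Arm ratios (103 hairpins) and class odds (1514 pairs, mean count of at least 10) were tested with limma 3.58.1 on log2 ratios with 0.5 added. The level tests without the block (any change, 12 h and trend) and the trend tests of arm ratio and class odds were checked on simulated data. The simulations held no difference between replicate numbers. The other tests were not checked in this way. Folding used RNAfold 2.7.2. Replicates differed beyond counting noise (chi-square per degree of freedom 58.8 to 324). The replicate numbers pair the libraries: for all 28 pairs of times, replicate deviations correlated (r 0.106 to 0.569), and the header gives each number its own run. Alternatives were DESeq2 1.42.0 size factors and test, total counts, other filters, limma-voom, the replicate block, reference reads only, other pseudocounts and leaving out each library. Named miRNAs were the members, any miRNA with their seed, the major arms of the growth-factor list, the 3 most correlated with each member and the hairpins next in arm ratio. The members and lists were chosen with earlier results of these data known. The limit for a count of 0 is 3 counts, 0.385 to 0.513 CPM.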

Additional observations from a re-analysis of the deposited data

How the results depend on the processing

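The upward trend of miR-31-5p passed the test under each alternative run, with slopes of 0.0221 to 0.0456 per hour (0.0324 to 0.0390 without single libraries), and no alternative called miR-31-3p or the arm ratio over time. The any-change call of miR-31-5p ended with DESeq2 size factors (adjusted p = 0.0517), total counts (0.351) and no low-count filter (0.0583), and without each single library (0.0586 to 0.123; the cause was not tested). Its 12 h call ended with total counts (0.23) and no low-count filter (0.40), and ranged from 0.28 to 0.53 without single libraries. Its 10 h call ended with total counts (0.27) and with only the 2 groups compared (0.44), and the 8 h difference passed with reference reads only (0.38).

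Signs of uncalled values turned. The arm-ratio slope was 0.00296 with reference reads only and -0.0122 to 0.00652 without single libraries. With total counts miR-31-5p was at -0.022 at 2 h, and miR-31-3p at -0.072 at 8 h and -0.010 at 10 h. Without single libraries miR-31-5p ranged from -0.068 to 0.17 at 1 h and -0.060 to 0.22 at 2 h, and miR-31-3p from -0.68 to 0.20 at 2 h, -0.50 to 0.16 at 6 h, -0.25 to 0.35 at 8 h and -0.31 to 0.54 at 10 h. Class slopes ranged from -0.111 to 0.0610 for C, -0.0160 to 0.0153 for U and -0.0173 to 0.00142 for 5′ C additions of miR-31-5p, and from -0.0228 to 0.00403 for templated additions of miR-31-3p. With a pseudocount of 5 the U slope was -0.00319. Within replicate 2 the slopes were 0.0144 (A) and 0.0106 (all unmatched) for miR-31-3p, and -0.00139 (all unmatched), 0.0232 (5′ C) and 0.00522 (all 5′ unmatched) for miR-31-5p.

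The number of classes called over the trend was 3, against 6 with the replicate block, 1 within replicate 1, 2 within replicate 2, 4 with a mean class count of at least 50 and 2 to 4 without single libraries. The block left every call on levels and arm ratio of miR-31 as it was. Counts over all miRNAs rose with the block, from 62 to 110 for any change, 53 to 84 at 10 h and 64 to 108 at 12 h, and from 122 to 312 class pairs for any change (72 without 12 h replicate 1, 80 without 0 h replicate 2). The any-change count was 101 when no filter was applied, 39 when the mean had to reach 10 CPM, and 36 when 0 h replicate 2 was left out. At 10 h the count became 30 or 23 on leaving out 0 h replicate 1 or 2, and 29 on leaving out 10 h replicate 2. At 12 h it was 42 without replicate 1 and 37 without replicate 2 of either 0 h or 12 h. The trend count was 59 without the 0 h libraries, 60 within replicate 2 and 148 with total counts (37 up). Counts at 1 h were 2, and 0 to 5 over the alternatives. At 2 h they were 11, against 31 with the block, 20 with no filter, 17 with the DESeq2 test, 7 at 10 CPM, 5 with the 2 groups alone, 6 and 2 without 0 h replicates 1 and 2, and 4 without 2 h replicate 2. At 4 h they were 34, against 66 with the block, 15 at 10 CPM, 18 and 14 without 0 h replicates 1 and 2, and 17 without 4 h replicate 2. At 6 h they were 35, against 77 with the block, 20 at 10 CPM, 17 and 16 without 0 h replicates 1 and 2, and 20 and 16 without 6 h replicates 1 and 2. At 8 h they were 43, against 81 with the block, 22 and 26 without 0 h replicates 1 and 2, and 27 and 20 without 8 h replicates 1 and 2. Hairpins called over the ratio trend went from 25 to 7 within replicate 2 and 16 without 12 h replicate 1. At 362 to 817 reads per library, counting error alone is 3.50% to 5.26% for miR-31-3p.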

Other observations

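Reads of miR-31-5p with an unmatched base at the 5′ end nearly all carried C. Of 307 such reads over the 16 libraries 284 were in the C class, 6 in the A class and 17 in the mixed class. The C reads were present in every library, at 12 to 23 reads in replicate 1 and 8 to 24 in replicate 2. Unlike the C additions at the 3′ end, their log2 odds differed between replicates by -0.04 ± 0.20 (SE; adjusted p = 0.901, limma with the replicate block). Templated 5′ additions were rarer, with 5 reads in all. In the hairpin the base before the 5p arm is G. Of the 12 miRNAs tested for 5′ C additions, 0 were called over the trend (limma, class odds), and miR-31-5p had the sixth highest share, 0.0235%.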
